A study of Mus musculus with 10 samples.

Results

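The genes described here are 6 mouse PYHIN genes: Ifi204, Ifi203, Ifi205, Aim2, Mndal and Pyhin1. They were chosen by name as the entries of the deposited count table whose gene name equals a listed PYHIN gene, 6 of 40789 genes in the table. RNA was sequenced from 10 mice, 1 library per mouse, 5 given LPS, the bacterial lipopolysaccharide sensed by Toll-like receptor 4, and 5 given saline. All mice were female C57BL6/J animals aged 2 to 3 months with the genotype CX3CR1+/egfp, in which a GFP reporter stands in 1 copy of the Cx3cr1 gene, so neither group was wild type at that locus. LPS was injected into the peritoneum at 4 mg/kg and tissue was taken after 24 h. Cells with high GFP were sorted from perfused cortex after a Percoll gradient, and their RNA was amplified before library construction. The gate therefore depends on a promoter whose own gene was lower in LPS mice, as given below. Total counts were 11577295 to 15274421 in saline mice and 12928007 to 15332121 in LPS mice. The protocols name no molecular identifiers, so counting intervals below leave amplification error out.

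PYHIN proteins join an N-terminal pyrin domain, which binds other pyrin domains, to C-terminal HIN domains, which bind double-stranded DNA. AIM2 is the family's best-known member: on cytosolic DNA it recruits the adaptor ASC (gene Pycard) and caspase-1, which matures interleukin-1β and interleukin-18 and cleaves gasdermin D. IFI204 is a mouse relative of human IFI16, which has been placed upstream of STING and interferon production. In mice the family is a cluster of neighbouring genes on chromosome 1, many of them inducible by interferon. Several of these are near copies of one another.

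The promoter stretches below are shown because most genes of the cluster share a short interferon-response sequence there. Pyhin1 and Aim2 are members in which it was not found in the 1 window searched for each. They come from RefSeq promoter windows of GRCm38.p6, and 12 of the 14 PYHIN genes in the table matched an entry. Ifi204 and Gm16340 did not. The core of the interferon-stimulated response element, GAAA then any 2 bases then GAAA, was searched on both strands within 250 bases before each start. It stood in 9 of the 12 family genes and in 3.46% of 27025 genes with a window. Capitals mark the core in the first 6 lines.
Mndal: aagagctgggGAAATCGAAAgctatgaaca
Ifi203: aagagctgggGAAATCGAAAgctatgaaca
Ifi205: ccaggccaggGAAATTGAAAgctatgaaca
Mnda: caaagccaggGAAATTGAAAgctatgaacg
AI607873: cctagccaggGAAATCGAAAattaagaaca
BC094916: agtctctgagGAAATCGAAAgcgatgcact
Pyhin1: aAtctctgagTaaatcgaaagAgatgcact
Aim2: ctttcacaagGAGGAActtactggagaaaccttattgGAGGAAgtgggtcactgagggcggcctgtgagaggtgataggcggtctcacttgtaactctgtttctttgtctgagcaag
The stretches of Mndal (chr1:173880204-173880233) and Ifi203 (chr1:173942508-173942537), both on the minus strand, are the same in all 30 bases printed. Those of Ifi205 (chr1:174031870-174031899, minus) and Mnda (chr1:173913064-173913093, minus) share another form of the core. AI607873 (chr1:173741831-173741860, minus) and BC094916 (chr1:173536017-173536046, minus) have the same core as Mndal. In Pyhin1 (chr1:173630770-173630799, plus) no match was found. Its stretch closest to any of these is a copy of the BC094916 stretch with 3 mismatches in 30 bases, shown in capitals. One of them is G1T, counted from the first base of the core with the BC094916 base first. The 1 window of Aim2 lies inside its gene model, which begins at chr1:173349547, so a start there was not searched. Aim2 (chr1:173420454-173420570, plus) also had no match in that window, and its closest stretch differed from the nearest family copy at 13 of 30 bases. The capitals in its line are GAGGAA, the core of the PU.1 motif, which stood in 5 of the 12 family genes and in 25.9% of all genes with a window. In 4 of those 5 it overlapped the response-element core. TTCNNNGAA, the gamma-activated site, stood in 1 of the 12 and in 8.13% of all genes. TGANTCA, the AP-1 site, stood in 3 of the 12 and in 7.82% of all. A match describes letters in a window, not binding.

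Ifi204 and Pyhin1 rose in LPS mice. Aim2 did not pass the test. Only these 3 of the 6 members passed the filter on low counts, and 2 of the 3 were called higher and 0 lower at an adjusted p under 0.05. Across the table, 22.4% of 13793 tested genes were called higher and 22.5% lower, 45.0% in either direction, by the same test, edgeR's quasi-likelihood test with Benjamini-Hochberg adjustment. Ifi205, Mndal and Ifi203 had too few reads for the filter and are described by their counts. In bulk RNA, fewer cells expressing a gene and less RNA per cell cannot be told apart.

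Ifi204 (Entrez gene 15951, chr1:173747293-173767069) encodes the DNA sensor related to IFI16. In CPM (counts scaled to the effective library size), saline mice 1 to 5 had 5.40, 7.13, 6.06, 4.49 and 3.92. LPS mice 1 to 5 had 249.8, 122, 253, 269.6 and 226 CPM. Every LPS mouse lay above every saline mouse, as for 14.1% of all tested genes, and LPS mouse 2 was the lowest of its group. The raw counts were 55 to 84 in saline mice and 1593 to 4253 in LPS mice. The means were 5.40 ± 1.27 and 224 ± 58.9 CPM (SD, n = 5 each), a 41.6-fold rise (log2 fold change 5.38, SE 0.26, edgeR adjusted p = 4.89e-09). Over the 23 alternative settings the log2 fold change of Ifi204 was 4.84 to 5.54, and it was called in all 23.

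Pyhin1 (Entrez gene 236312, chr1:173630859-173647928; Ifi209 in RefSeq) encodes another protein of the family. Saline mice 1 to 5 had 7.44, 8.74, 8.56, 7.05 and 3.99 CPM. LPS mice 1 to 5 had 55.1, 29.4, 80.2, 70.2 and 70.1 CPM. The groups did not overlap, and LPS mouse 2 was again the lowest of its group. The rise was 8.53-fold, from 7.16 ± 1.91 to 61.0 ± 19.8 CPM (SD, n = 5 each; log2 fold change 3.09, SE 0.33, edgeR adjusted p = 1.20e-06). The log2 fold change of Pyhin1 was 2.57 to 3.27 over the 23 alternatives, and it was called in each.

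Aim2 (Entrez gene 383619, chr1:173349547-173466040) encodes the inflammasome sensor. Saline mice 1 to 5 had 68.1, 80.6, 83.1, 64.0 and 61.1 CPM. LPS mice 1 to 5 had 69.8, 52.2, 63.4, 55.2 and 45.2 CPM. LPS mice 1 and 3 lay within the saline range and the other 3 below it. The means were 71.4 ± 9.93 and 57.2 ± 9.61 CPM (SD, n = 5 each), 1.25-fold lower in LPS mice (log2 fold change -0.32, SE 0.14). The unadjusted edgeR p was 0.0472 and the adjusted p 0.0894, so the difference did not pass the threshold. It passed when libraries were scaled by total count alone (log2 fold change -0.41, adjusted p = 0.0360), a scaling that moved the median of all tested genes to -0.08. Removing the trend of fold change with gene length turned its sign (log2 fold change 0.20, adjusted p = 0.355). That correction used lengths implied by the deposited counts and RPKM (counts scaled by gene length and library). The implied length of Aim2 is 2.85 times that of the median gene, at percentile 94.2, and that of Ifi204 0.780 times. Yet their exons in GENCODE M21 hold 3501 and 3561 bases, so the sign under this correction rests on a length that the 2 sources give differently.

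**Figure D1:**
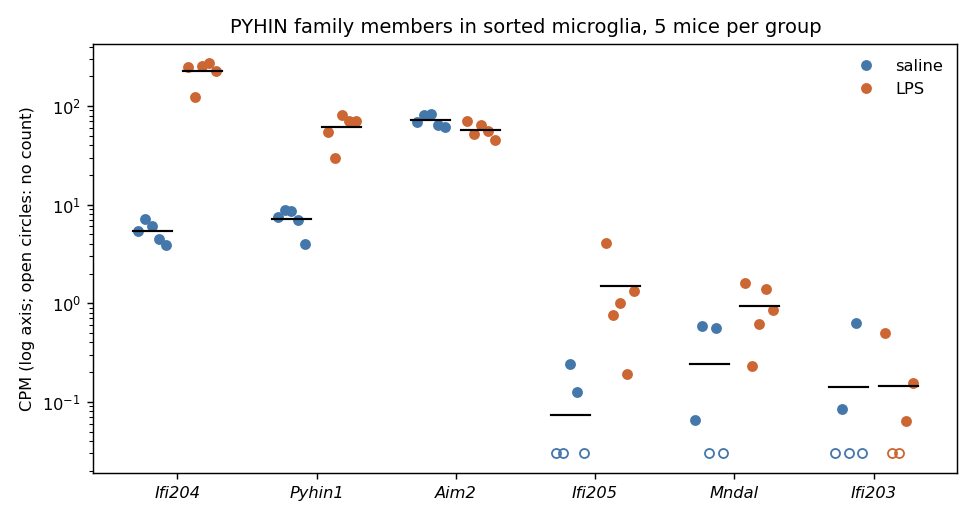
Level of each member in each mouse, on a log axis of CPM; each point is 1 mouse, horizontal lines are group means, and open circles stand for mice with no count. Ifi204 and Pyhin1 of the 5 LPS mice lie above all 5 saline mice (122 against 7.13 and 29.4 against 8.74 CPM at the nearest), while Aim2 overlaps between the groups.

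The other 3 members were near the detection limit in both groups. Ifi205, an interferon-inducible family gene (Entrez gene 226695, chr1:174011998-174031755), had 0, 0, 3, 2 and 0 counts in saline mice and 49, 10, 13, 3 and 17 in LPS mice. LPS mouse 4 matched the highest saline count, and LPS mouse 1 held most of the LPS counts. The summed counts, 5 against 92, gave a depth-scaled ratio of 19.2 (95% Clopper-Pearson interval 7.95 to 60.6). As a ratio of group mean CPM it was 20.1, and 11.2 without LPS mouse 1 or 47.4 without saline mouse 3. With no filter on low counts, Ifi205 was higher (log2 fold change 4.14, edgeR adjusted p = 0.000574), where 11.4% of 27565 genes were called higher. It also passed the filter, and was called higher, in 6 of the 10 fits that left out 1 mouse (adjusted p = 0.000573 to 0.00957). With any mouse left out the filter asks for fewer libraries. The 6 fits were those without a saline mouse or without LPS mouse 4, which kept LPS mice 1, 2, 3 and 5, at 10 to 49 counts each. Ifi205 entered them through its LPS counts, so these calls are not further support.

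Mndal (Entrez gene 100040462, chr1:173857215-173880382), the gene whose promoter stretch equals that of Ifi203, had 1, 7, 0, 9 and 0 counts in saline mice. It had 19, 3, 8, 22 and 11 counts in LPS mice. The groups overlapped in count. The sums, 17 against 63, gave a ratio of 3.87 (interval 2.24 to 7.06), which covers counting error only. As a ratio of mean CPM it was 3.85, 5.99 without saline mouse 2 and 3.08 without saline mouse 3. Without the filter, the log2 fold change of Mndal was 1.89 and did not pass (edgeR adjusted p = 0.0920).

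Ifi203 (Entrez gene 15950, chr1:173920400-173942866) had 0, 1, 0, 10 and 0 counts in saline mice and 6, 0, 0, 1 and 2 in LPS mice. The sums were 11 against 9, a ratio of 0.855 (interval 0.313 to 2.27). The interval covers counting error only and leaves out differences between mice, so at this depth a difference was neither shown nor excluded. Of the 11 saline counts 10 came from mouse 4, and without it the ratio of mean CPM moved from 1.02 to 6.81. Without the filter Ifi203 had a log2 fold change of -0.09 (edgeR adjusted p = 0.979). A mouse with 0 counts may have had up to 3 by counting error alone.

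The table named 8 further PYHIN genes at the locus, given here under the table's names. Of these, 4 passed the filter, and 4 of the 4 were called higher, against 22.4% of all tested genes. Their median log2 fold change was 4.66 against 0.00 over all tested genes. Mnda, LOC102639543 and Pydc4 had at most 3, 17 and 14 counts in a saline mouse. They passed the filter only with the counts of LPS mice. A gene that enters this way could hardly be called lower, so the direction of these calls is not support. AI607873 (Ifi207 in RefSeq) had 1.78, 7.64, 2.42, 2.50 and 1.21 CPM in saline mice and 90.7 to 182 CPM in LPS mice. It rose 49.0-fold (edgeR adjusted p = 2.83e-07), and the log2 fold change went from 5.61 to 6.24 without saline mouse 2. Mnda (Ifi211) had 0, 2, 3, 1 and 0 counts in saline mice against 77, 22, 126, 85 and 106 in LPS mice. Its depth-scaled count ratio was 72.5 (interval 33.0 to 199), with an edgeR adjusted p of 1.07e-05. The fitted log2 fold change of Mnda, 6.02, became 6.66 without saline mouse 3. LOC102639543 (Ifi206) and Pydc4 (Ifi213) each rose 13.1-fold, with edgeR adjusted p-values of 6.39e-06 and 1.41e-05.

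The other 4 genes of the cluster were below the filter. Pydc3 (Ifi208) had at most 2 counts in a saline mouse and 7 to 24 in LPS mice, a ratio of 30.7 (interval 10.2 to 152). BC094916 (Ifi214) had 1 count summed over the saline mice and 32 over the LPS mice, a ratio of 33.5 (interval 5.59 to 1362). Gm16340 had 1 count against 7, and Ifi202b had 1 count summed over the 10 libraries. Among the 6 PYHIN genes that were tested and called higher, LPS mouse 2 was the lowest LPS mouse for all 6. The highest was LPS mouse 3 for 4 of them and LPS mouse 4 for 2. Among genes below the filter, LPS mouse 2 was the lowest for Mndal and Pydc3, and LPS mouse 4 for Ifi205, BC094916 and Gm16340. Outside the family LPS mouse 2 was also the lowest for Zbp1, Irf7, Usp18, Stat2, Trex1, Casp1, Il18bp and Nlrc5. It was not the lowest for Ikbke, Cyp4f18, Casp4, Dusp23 or Fh1, and for Il1b it was the highest at 377 CPM.

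**Figure D2:**
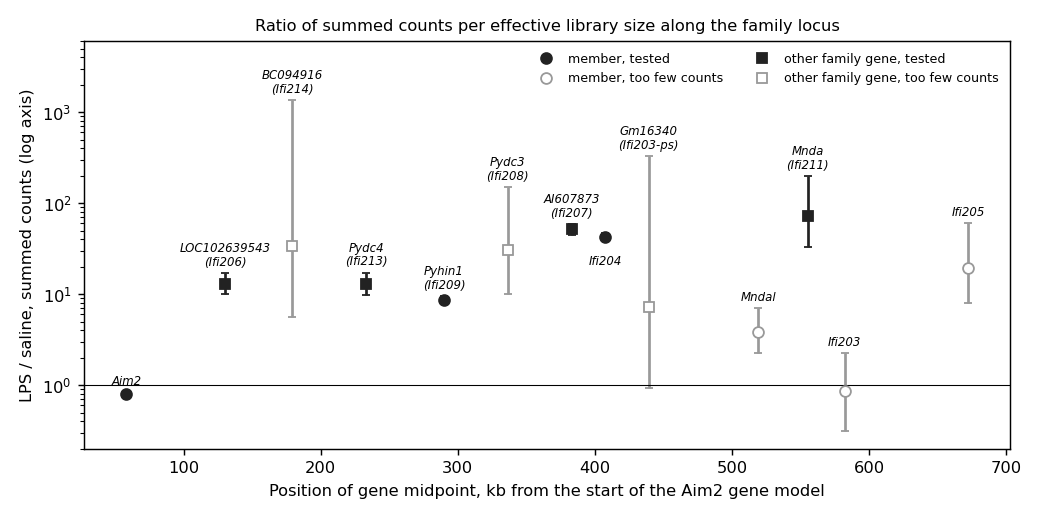
Ratio of LPS to saline counts, scaled for depth, of each PYHIN gene with a count in both groups, on a log axis against its midpoint in kilobases from the start of the Aim2 gene model; filled symbols passed the filter and bars are 95% Clopper-Pearson intervals of the count ratio and cover counting error only. Aim2 lies below 1, the intervals of Ifi203 and Gm16340 cross 1, and the others lie above it. The bars leave out differences between mice. In edgeR, Aim2 did not pass (adjusted p = 0.0894), nor did Mndal with no filter on low counts (adjusted p = 0.0920).

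The cluster spans chr1:173349547-174031755. The nearest tested protein-coding genes outside it were also called higher, by smaller folds. Dusp23, a phosphatase gene 717 kb before the cluster, went from 3.30 to 12.6 CPM, 3.83-fold (edgeR adjusted p = 2.89e-05). Fh1, the fumarate hydratase gene 1570 kb after it, went from 72.7 to 98.8 CPM, 1.36-fold (edgeR adjusted p = 0.00891).

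Levels of different genes were compared per length in the deposited RPKM table (counts scaled by gene length and library), which lists 7 PYHIN genes. Its implied lengths are 2.85 times the median gene for Aim2 and 0.780 times for Ifi204, against 3501 and 3561 exonic bases in GENCODE M21. The order and the shares below therefore depend on the deposited lengths. In CPM, not scaled by length, LPS mice had 61.0 of Pyhin1 and 57.2 of Aim2. In saline mice Aim2 was the highest at 7.91 ± 1.19 RPKM (SD, n = 5). Ifi204 at 2.19 ± 0.536 and Pyhin1 at 2.03 ± 0.550 RPKM followed and lay within each other's spread, with AI607873 below at 0.840 RPKM. In LPS mice the order was Ifi204 at 92.5 ± 23.8 RPKM, AI607873 at 41.1, Pyhin1 at 17.6 ± 5.64 and Aim2 at 6.46 ± 1.09 RPKM. Mnda, LOC102639543 and Pydc4 followed at 3.57, 2.44 and 1.91 RPKM. The summed RPKM of the 7 genes was 10.2 to 16.9 in saline mice and 93.4 to 196.5 in LPS mice. Aim2 made up 59.9% ± 4.81 of that sum in saline mice and 4.15% ± 1.39 in LPS mice (SD, n = 5 each). The share of Ifi204 was 16.3% ± 0.928 and then 55.8% ± 2.83. Neither gene's shares overlapped between the groups. A share falls when another gene rises, so the lower share of Aim2 is not a lower Aim2 level.

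**Figure D3:**
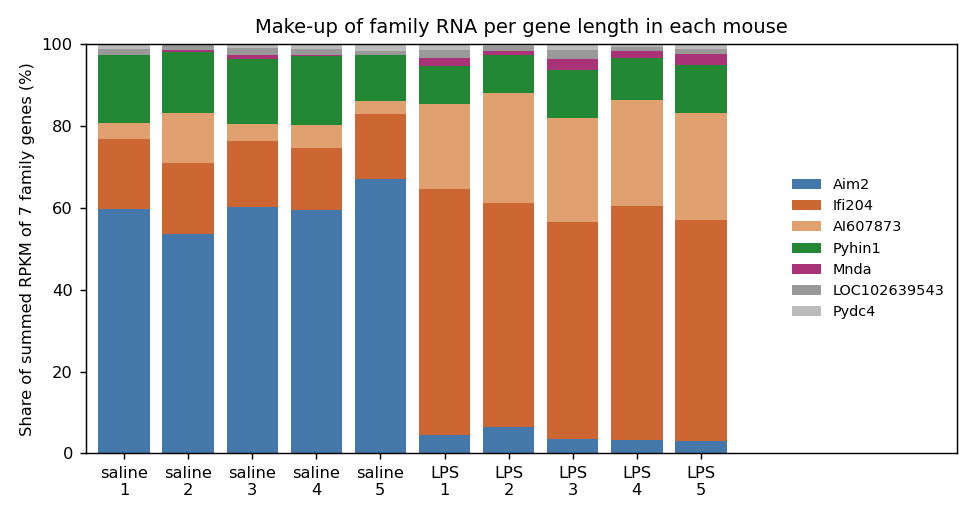
Share of the summed RPKM of 7 PYHIN genes held by each gene, in percent, as 1 stacked bar per mouse. The shares depend on the gene lengths used for the deposited RPKM. Aim2 holds 53.5% to 67.1% of the bar in saline mice and 2.96% to 6.38% in LPS mice, where Ifi204 holds 52.9% to 60.0%.

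Near copies limit how reads divide among these genes. Of the distinct 50-base stretches in GENCODE M21 transcripts of Pyhin1, 33.7% also occur in transcripts of another gene, almost all of them in Ifi214. For Ifi204 the share was 20.02%, most of it with Ifi211, for Ifi205 18.6%, for Mndal 19.6% and for Ifi203 12.4%. Mnda shared 72.8%, 44.7% with Ifi205, and LOC102639543 25.6%. Pydc3 shared 20.9%, Pydc4 15.6%, BC094916 14.6% and AI607873 7.29%. Aim2 shared 0.742%. With 100-base stretches the shares were 10.7% for Ifi204, 16.9% for Pyhin1 and 0 for Aim2. Exons of other genes overlapped 4.27% of the Mndal exons and 0.552% of the Ifi203 exons. The labels do not say how the authors' counting treated reads with several matches. The counts of Ifi204, Pyhin1, Ifi205, Mndal, Ifi203, Mnda, LOC102639543, Pydc3, Pydc4, BC094916 and, less so, AI607873 are therefore uncertain.

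**Figure D4:**
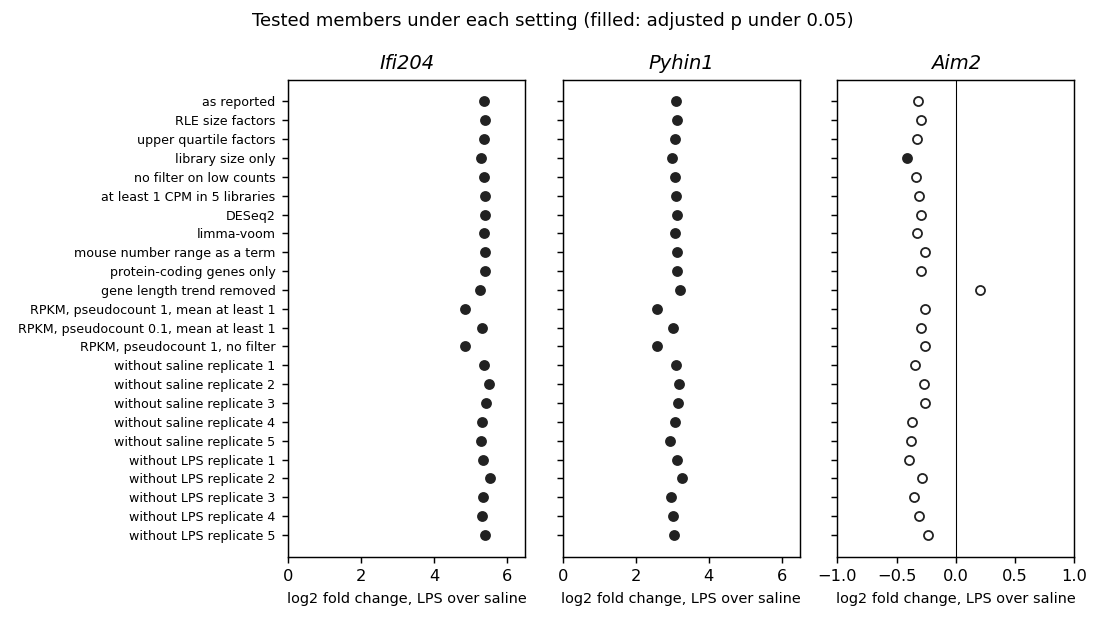
Log2 fold change, LPS over saline, of Ifi204, Pyhin1 and Aim2 under each analysis setting, with 1 point per setting, filled where the adjusted p is under 0.05; the Aim2 axis has a narrower range, and the RPKM settings are on the scale of log2(RPKM + pseudocount). Ifi204 stays between 4.84 and 5.54 and Pyhin1 between 2.57 and 3.27, while Aim2 lies between -0.41 and 0.20.

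Of 12 inflammasome and pyroptosis genes, 11 were tested. Among these 6 were called higher and 3 lower, against 22.4% and 22.5% of all tested genes, with a median log2 fold change of 0.35. The higher genes were Pycard, Casp1, Casp4, Gsdmd, Il1b and Il18. Casp1, the protease AIM2 activates, went from 85.0 ± 15.3 to 167 ± 22.2 CPM, 1.97-fold (edgeR adjusted p = 0.000189). Casp4, the sensor of cytosolic LPS, went from 25.8 ± 4.10 to 64.5 ± 12.2 CPM, 2.50-fold (adjusted p = 2.00e-05). Il1b, a substrate of caspase-1, went from 5.36 ± 1.90 to 155 ± 138 CPM, 29.0-fold (adjusted p = 5.47e-05), and its LPS mice ranged from 12.3 to 377 CPM. The lower genes were Nek7, a kinase needed by NLRP3 (151.7 to 86.6 CPM, 1.75-fold lower, edgeR adjusted p = 0.000231), Nlrp3 (adjusted p = 0.0383) and Casp8 (adjusted p = 0.0239). Nlrp3 and Nek7 belong to the NLRP3 inflammasome rather than that of AIM2. Of 20 alternatives, Gsdmd was called higher in 9 and Nlrp3 lower in 12. With the length trend removed 3 of the list were called higher, and without saline mouse 1, saline mouse 2 or LPS mouse 5 only 1 was called lower.

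Of 14 genes of the cGAS-STING arm of DNA sensing 13 were tested, with a median log2 fold change of 0.35. Among these 7 were called higher and 2 lower, against 22.4% and 22.5% of all tested genes. The sensor cGAS itself (Mb21d1) and STING (Tmem173) did not pass (edgeR adjusted p = 0.756 and 0.755). Zbp1, a sensor of Z-form nucleic acids, went from 1.36 ± 0.585 to 74.4 ± 28.6 CPM, 55.5-fold (adjusted p = 7.72e-08). Trex1, the exonuclease that removes cytosolic DNA, went from 72.2 to 473 CPM, 6.55-fold (adjusted p = 1.73e-07). Ikbke, a kinase related to TBK1, went from 0.948 to 7.22 CPM (adjusted p = 3.10e-05). Irf3, Samhd1, Dnase2a and Ddx41 were the other genes called higher. Tbk1, the kinase that acts next to STING, was 1.45-fold lower (adjusted p = 0.0347), and Prkdc, a DNA repair kinase, 1.46-fold lower (adjusted p = 0.0180). Without saline mouse 3 neither was called, and of 20 alternatives Tbk1 was called in 11, Dnase2a in 11 and Ddx41 in 12.

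Of 16 interferon signalling genes 15 were tested, with a median log2 fold change of 0.08. Among these 7 were called higher and 1 lower, against 22.4% and 22.5% of all tested genes. Irf7, the transcription factor that amplifies interferon production, went from 11.6 to 202 CPM, 17.4-fold (edgeR adjusted p = 7.23e-08). Usp18, a feedback inhibitor of the interferon receptor, rose 11.8-fold from 29.8 to 352 CPM (adjusted p = 4.48e-07). Stat2, part of the complex that binds the response element, rose 3.27-fold (adjusted p = 1.04e-05). Irf9, Irf1 and Ifngr1 were among the others called higher. Jak1, the receptor kinase, was 1.30-fold lower (adjusted p = 0.0467), a call lost on leaving out any of 7 of the 10 mice.

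The genes outside the family whose pattern over the 10 libraries was most like each tested member were found by the root mean square difference of log2 CPM, each gene centred on its saline mean, among 9784 genes. For Ifi204 they were Zbp1 (0.357) and Cyp4f18 (0.414), a fatty acid hydroxylase gene. For Pyhin1 they were Il18bp (0.263), which encodes the binding protein of interleukin-18, and Nlrc5 (0.368), an activator of MHC class I genes. For Aim2 they were Acad8, of valine breakdown, and Wdr1, of actin turnover, both at 0.115. Wdr1 was called lower (edgeR adjusted p = 0.0289) and Acad8 was not (adjusted p = 0.199).

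The mouse numbers in the labels fall into 3 ranges, which are numbers and not stated batches. Within them the ratio of mean CPM, LPS over saline, was 29.7, 47.9 and 63.2 for Ifi204. For Pyhin1 it was 5.22, 10.3 and 17.6, and for Aim2 0.820, 0.862 and 0.822. Each range holds 1 or 2 mice of a group, and the ratios were not tested range by range. With the range as a term in edgeR the log2 fold change was 5.38 for Ifi204 (adjusted p = 9.36e-08), 3.12 for Pyhin1 (adjusted p = 6.35e-06) and -0.26 for Aim2 (adjusted p = 0.157).

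The sorted cells were rich in microglial markers in both groups, and the markers changed with LPS. The sum of 8 microglial markers was 53215 to 60654 CPM in saline mice and 15791 to 28106 CPM in LPS mice (exact two-sided permutation p = 0.00794, the smallest 5 against 5 allows; 0.0291 adjusted over 11 marker lists). Of the 8, 6 were called lower, with P2ry12 going from 21585 to 2419 CPM and Cx3cr1, whose promoter drives the reporter, from 4134 to 1476 CPM. Tmem119 did not pass (1058 ± 246 and 899 ± 179 CPM, edgeR adjusted p = 0.302). The sum of 7 neutrophil markers was 0.162 to 1.12 CPM in saline mice and 2.01, 7.53, 5.67, 28.3 and 21.8 CPM in LPS mice 1 to 5 (exact permutation p = 0.00794, adjusted 0.0291). Of these 7 markers 1 was tested, Cxcr2, and it was higher. The sum of 6 border macrophage markers was 9.84 to 14.8 CPM in saline mice and 14.5 to 44.0 CPM in LPS mice (exact permutation p = 0.0159, adjusted 0.0437). Of the 3 tested, Cbr2 and F13a1 were called higher and Mrc1, the most abundant of the 6, was not called. The sum of 4 endothelial markers was lower in LPS mice, 49.3 to 72.9 against 4.77 to 10.8 CPM (exact permutation p = 0.00794, adjusted 0.0291). Of these 4 markers 1 was tested, Pecam1, and it was called lower. Cldn5 had no count in any library. The monocyte sum was 8.90 to 17.7 CPM in saline mice and 5.01 to 16.9 CPM in LPS mice (exact permutation p = 0.310), and its 2 tested markers went opposite ways. Ccr2 was called lower, from 10.2 to 2.45 CPM, and Plac8 did not pass, at 2.28 ± 1.38 and 6.65 ± 5.83 CPM (SD, n = 5 each; edgeR adjusted p = 0.0605). The part of these other cells in the PYHIN results was not tested.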

How the data were processed

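Gene counts, not normalised, and RPKM tables were deposited by the authors. Per the submitters' processing notes featureCounts and the builds GRCm38 and mm10 were used. The sources used here do not give the aligner, the annotation or the strand setting. The deposited RPKM values equal the counts times 1 factor per library and 1 per gene. Of 40789 genes 13224 had no count, and 1 line with no gene was left out. A total of 37659 genes were matched in RefSeq.

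The test of the counts of all 10 mice was run in edgeR 4.0.16 under R 4.3.3 (TMM factors, filterByExpr, quasi-likelihood F test, Benjamini-Hochberg at 0.05, no covariate). The SE is from log2 CPM with a prior count of 2. Count ratios have exact binomial intervals. Single sums were compared by exact permutation in scipy 1.17.1 with Python 3.11.15. The fits were tested on simulated data. Alternatives used RLE, upper quartile or library size scaling, no filter, at least 1 CPM in 5 libraries, DESeq2 1.42.0, voom and RPKM fits in limma 3.58.1 (pseudocount 1 or 0.1), coding genes only, a mouse number term, a length correction and each mouse left out. Samples were grouped by their labels, in which saline mice are titled PBS, and numbered in accession order within a group.

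Named were all PYHIN genes of the locus, of each pathway list the 3 called genes with the smallest adjusted p and called genes against the direction of most, the 2 most like each tested member, the flanking genes and cell type markers. Of the listed genes 1 is counted but not reported by name here. A pseudogene of the family elsewhere on chromosome 1 was left out. Members and lists were chosen with earlier results of these data known. Promoter windows and coordinates are from RefSeq for GRCm38.p6.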

Additional observations from a re-analysis of the deposited data

Results flagged for a closer look

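The 5 mice of a group were examined for each named gene with at least 20 counts in that group, 69 sets in all. In 7 of them 1 mouse stood apart from the other 4 by more than 0.71 of the set's range, which chance gives in about 1 in 20 sets. For AI607873, saline mouse 2 had 7.64 CPM and the others 1.21 to 2.50. The same mouse had 0.339 CPM of Pydc4 (others 0.856 to 0.997), 66.4 CPM of Nlrp3 (others 44.7 to 48.7) and 2.38 CPM of Zbp1 (others 0.873 to 1.21). Saline mouse 1 had 32.7 CPM of Casp4 (others 22.6 to 25.5). Saline mouse 5 had 1499 CPM of Tmem119 (others 937 to 962). LPS mouse 1 had 82.6 CPM of Acad8 (others 56.2 to 61.9). None of the 3 tested PYHIN members, Ifi204, Pyhin1 and Aim2, had such a mouse in either group. For Ifi204, LPS mouse 2 came close to that limit, at 122 CPM with the others at 226 to 269.6.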

How the results depend on the processing

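The counts of higher and lower genes over the whole table, and the number of PYHIN members called higher, stayed within 1.5 times under each alternative run. With library size scaling alone, 1 PYHIN member was called lower (Aim2) against 0, and 2 interferon signalling genes against 1. With the gene length trend removed, Aim2 turned to a log2 fold change of 0.20, 3 of the inflammasome genes were called higher against 6, and 1 cGAS-STING gene and 0 interferon signalling genes were called lower against 2 and 1. With the mouse number range as a term, 1 cGAS-STING gene was called lower. With RLE factors or no filter, 0 interferon signalling genes were called lower. Leaving out each mouse gave 1 to 3 lower inflammasome genes, 0 to 2 lower cGAS-STING genes and 0 to 1 lower interferon signalling genes. The cause was not tested. No paired analysis was possible because the groups share no mouse numbers in the labels. Depth limits Ifi203, Mndal and Ifi205, whose counts did not exceed 49 in any mouse. Ifi205 entered the test in 6 fits that left out 1 mouse and was called higher in each of the 6. It entered through its LPS counts, so these calls are not further support.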
